A study of Mus musculus with 6 samples.

Results

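The interferon response genes are described here through H3K4me3, the trimethylation of lysine 4 of histone H3 that marks active promoters, as measured by ChIP-Seq in STHdh cells. The 44 members came from a list of gene names chosen by function, and were set beside all 21911 protein-coding genes of GENCODE vM21, which include every member but 1 (Mx2). A gene counted as marked if any of its annotated transcript starts had a peak at a distance of 1 kb or less. STHdh cells are conditionally immortalised mouse striatal progenitors on a C57BL/6 background. The wild-type line STHdhQ7 was given vehicle control in serum-free medium for 24 h (Q7SST), and the line STHdhQ111, a homozygous knock-in of mutant huntingtin, received the same (Q111SST). In 4 further conditions STHdhQ111 cells were treated for 24 h in serum-free medium with 10 uM Cyproheptadine, Loxapine, Meclizine or diacylglycerol kinase inhibitor II (DKI). The design text describes treatment of the mutant line in triplicate, but each condition had 1 peak list, and whether it pools replicates is not stated, so replicate error could not be measured and conditions were not tested against each other. Each genotype was 1 cell line, so genotype and line cannot be told apart.

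Interferons are secreted in response to viral nucleic acid. They bind receptors at the cell surface, and the signal reaches the nucleus as complexes of STAT proteins and interferon regulatory factors, which bind the interferon-stimulated response element (ISRE) or the gamma-activated site (GAS) in the promoters of induced genes. The induced genes encode sensors of foreign nucleic acid, antiviral effectors and further components of the pathway itself, and a low level of their expression is kept in many cells without infection. The mark H3K4me3 sits over the start of a transcribed gene and commonly extends into the first part of its body.

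The lists held 30758 to 45564 peaks. Their depth is unknown, since no read totals were used, and a shorter list may have fewer reads behind it. Peak scores were ranked only within a list: the strength of a gene is the percentile of its highest-scoring peak among all peaks of that list, and its width is the width of that peak. Of the neural progenitor markers, 5 of 6 were marked in Q7SST and 5 of 6 in Q111SST, with Vim and Notch1 marked in all 6 lists. Sox2 was marked in 5 lists, and Q7SST was the exception. Of 8 striatal lineage markers, 8 were marked in Q7SST and 6 in Q111SST. Of 8 macrophage and microglia markers, 2 were marked in each of these 2 lists, and Ptprc, Itgam, Csf1r, Cx3cr1, Cd68 and Spi1 were marked in none of the 6. Of 5 lymphocyte markers, 1 (Lck) was marked in every list, of 4 astrocyte markers 1 was marked in Q7SST and 2 in Q111SST, and of 3 endothelial markers 1 (Kdr) was marked in every list.

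Reference promoters of 6 members are shown. Isg15 and Rsad2 lacked a Q7SST peak, and Gbp2 and Ifi35 had the strongest Q111SST peaks. Ifit1 and Ifit3 had the narrowest Q7SST peaks relative to Q111SST among members with an ISRE in the sequence table. The last pair was chosen after its values were seen. Each sequence is from RefSeq on GRCm38.p6, runs 5′ to 3′ along the gene from 250 bases before the start, and has matches to the ISRE core (GAAANNGAAA on either strand) in capitals.
Isg15: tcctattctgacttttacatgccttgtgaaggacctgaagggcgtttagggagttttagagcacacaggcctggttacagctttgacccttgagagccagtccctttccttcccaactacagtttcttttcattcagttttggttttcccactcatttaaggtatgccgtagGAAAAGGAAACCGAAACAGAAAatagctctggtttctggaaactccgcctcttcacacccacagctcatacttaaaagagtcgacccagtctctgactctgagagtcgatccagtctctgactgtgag
Rsad2: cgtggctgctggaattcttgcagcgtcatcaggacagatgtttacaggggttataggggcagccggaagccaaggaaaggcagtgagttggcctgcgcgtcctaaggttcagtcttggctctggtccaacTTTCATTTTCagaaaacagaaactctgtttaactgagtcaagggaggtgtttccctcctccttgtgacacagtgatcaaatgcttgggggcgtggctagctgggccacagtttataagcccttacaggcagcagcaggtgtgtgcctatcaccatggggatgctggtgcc
Ifit1: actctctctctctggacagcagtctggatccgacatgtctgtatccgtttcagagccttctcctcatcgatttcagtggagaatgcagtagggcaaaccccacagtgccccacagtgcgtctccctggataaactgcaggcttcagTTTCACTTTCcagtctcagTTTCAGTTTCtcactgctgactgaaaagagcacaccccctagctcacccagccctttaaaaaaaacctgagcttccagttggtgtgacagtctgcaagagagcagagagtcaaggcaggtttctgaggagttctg
Ifit3: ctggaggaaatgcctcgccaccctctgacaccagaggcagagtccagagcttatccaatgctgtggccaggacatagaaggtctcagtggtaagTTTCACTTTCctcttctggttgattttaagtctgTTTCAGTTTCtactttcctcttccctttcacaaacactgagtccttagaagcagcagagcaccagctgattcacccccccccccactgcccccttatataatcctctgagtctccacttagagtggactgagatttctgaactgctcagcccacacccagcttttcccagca
Gbp2: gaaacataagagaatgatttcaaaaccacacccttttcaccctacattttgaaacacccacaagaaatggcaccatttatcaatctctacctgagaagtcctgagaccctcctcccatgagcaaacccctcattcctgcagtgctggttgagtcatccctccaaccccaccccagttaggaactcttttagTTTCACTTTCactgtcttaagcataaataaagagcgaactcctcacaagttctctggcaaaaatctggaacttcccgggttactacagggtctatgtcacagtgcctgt
Ifi35: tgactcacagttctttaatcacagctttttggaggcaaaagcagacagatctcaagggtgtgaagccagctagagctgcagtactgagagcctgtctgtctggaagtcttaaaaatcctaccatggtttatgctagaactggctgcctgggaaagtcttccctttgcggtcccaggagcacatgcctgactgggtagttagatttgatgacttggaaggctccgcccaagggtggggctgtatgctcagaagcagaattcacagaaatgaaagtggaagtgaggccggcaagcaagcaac
They lie at chr4:156200769-156201068 on the minus strand (Isg15), chr12:26456403-26456702 on the minus strand (Rsad2), chr19:34640639-34640938 (Ifit1), chr19:34583279-34583578 (Ifit3), chr3:142620413-142620712 (Gbp2) and chr11:101448162-101448461 (Ifi35), the last 4 on the plus strand. The Isg15 promoter held 3 overlapping matches, those of Ifit1 and Ifit3 held 2 each, those of Rsad2 and Gbp2 held 1 each, and that of Ifi35 held 0. All 300 bases of the Isg15 sequence lay under a peak in Q111SST and in each compound list, and 0 in Q7SST. For Rsad2, 256 of the 300 bases lay under a Q111SST peak, 300 under a DKI peak and 246 under a Meclizine peak, and 0 lay under a peak in Q7SST, Cyproheptadine or Loxapine. For Ifi35, 231 bases lay under a Q111SST peak and 193 under a Q7SST peak, and 41 to 125 in the compound lists. For Ifit1, Ifit3 and Gbp2 all 300 bases were under peaks in all 6 lists.

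The promoter table held 36 of the 44 members, with 46 promoters. Zbp1, Usp18, Parp14, Dhx58, Parp9, Mx2, Mx1 and Nlrc5 were not in it. An ISRE core was found in 14 of the 46 promoters (30.4%), against 3.44% of 32851 promoters of the same length, each in a different gene. The GAS core (TTCNNNGAA, which reads the same on both strands) was found in 12 (26.1%), against 8.30% of all promoters. A CpG observed-to-expected ratio of at least 0.6 was reached by 18 (39.1%), against 35.8% of all promoters. A match is a description of letters in this window and not of a bound site.

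Most of the 44 members carried the mark in all 6 lists. In Q111SST all 44 members were marked, where 58.4% of protein-coding genes were. How the members were chosen, given with the processing below, bears on this count. Of a separate list of 26 further interferon-induced genes, 20 were marked in Q111SST. In Q7SST 40 members were marked (background 59.9%). With the compounds, 44 members were marked for Loxapine (58.1%) and 44 for Meclizine (58.6%), and 42 were marked for Cyproheptadine (55.4%) and 42 for DKI (55.8%). The mark was found in all 6 lists at 40 members, in some lists at 4 and in no list at 0. Of protein-coding genes, 11713 were marked in all 6 lists.

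The 4 members without a Q7SST peak were Isg15, Mx1, Rsad2 and Zbp1. They amount to 4 of the 44 members marked in Q111SST, where 3.56% of all genes marked in Q111SST had no Q7SST peak. Under the alternatives run, 3 to 6 members were lost, and shares of all genes under those settings were not set beside these counts. Because every member was marked in Q111SST, none could be gained in another list. Each of the 4 is described in turn.

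Isg15 encodes a ubiquitin-like protein that is attached to other proteins during the interferon response (chr4:156199424-156200818, minus strand, 1 annotated start). Its Q111SST peak (chr4:156198616-156201173) covered the start, exon and intron sequence, and was 2558 bp wide. Peak width was 2693 bp with Loxapine, 1162 bp with Meclizine, 913 bp with DKI and 1032 bp with Cyproheptadine. The strength percentile was 59.0 in Q111SST, 64.5 with Loxapine, 63.6 with Meclizine, 61.3 with DKI and 65.8 with Cyproheptadine. In Q7SST the nearest peak was 2112 bp from the start. All 5 lists from the mutant line thus held a peak over the start, at similar percentiles but at widths that fell into a wide and a narrow set.

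Rsad2 encodes viperin, an antiviral enzyme of the endoplasmic reticulum and lipid droplets (chr12:26442746-26456452, minus strand). Its Q111SST peak (chr12:26454211-26456658) was 2448 bp wide, and it was overlapped by peaks of 2160 bp with Loxapine, 2099 bp with Meclizine, 2187 bp with DKI and 2147 bp with Cyproheptadine. The strength percentile was 51.5 in Q111SST, 52.8 with Loxapine, 41.0 with Meclizine, 29.5 with DKI and 20.2 with Cyproheptadine. The nearest Q7SST peak was 12552 bp away. The mutant-line lists were thus alike in width at Rsad2 and spread in strength.

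Mx1 belongs to a family of antiviral GTPases (chr16:97447035-97462907, minus strand). It was marked in Q111SST by a peak of 956 bp at percentile 36.8, with Loxapine by one of 342 bp at percentile 45.7 and with Meclizine by one of 945 bp at percentile 24.9. Q7SST, Cyproheptadine and DKI had no peak nearer than 33164, 32784 and 32846 bp. Zbp1 encodes a sensor of left-handed nucleic acid (chr2:173206612-173218923, minus strand). It was marked in the same 3 lists, at 1807 bp and percentile 32.4 in Q111SST, 1586 bp and 31.8 with Loxapine, and 1271 bp and 10.8 with Meclizine. Its nearest peaks in Q7SST, Cyproheptadine and DKI were 39004, 44626 and 47390 bp away. Mx1 and Zbp1 had the lowest percentiles of all 44 members in Q111SST, and the Cyproheptadine and DKI lists were the shortest of the 6.

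The larger difference between the lines was in width. Of the 40 members marked in both, 20 had a peak at least 1.5-fold narrower in Q7SST than in Q111SST, against 6.89% of the 12335 genes marked in both. Peaks at least 1.5-fold wider in Q7SST were found at 2 members, Irf4 and Irf8, against 5.82% of genes. At any size, 38 of the 40 members (95%) were narrower in Q7SST, against 60.5% of genes. The median ratio of Q7SST to Q111SST width was 0.668 over the members and 0.973 over all genes marked in both.

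**Figure D1:**
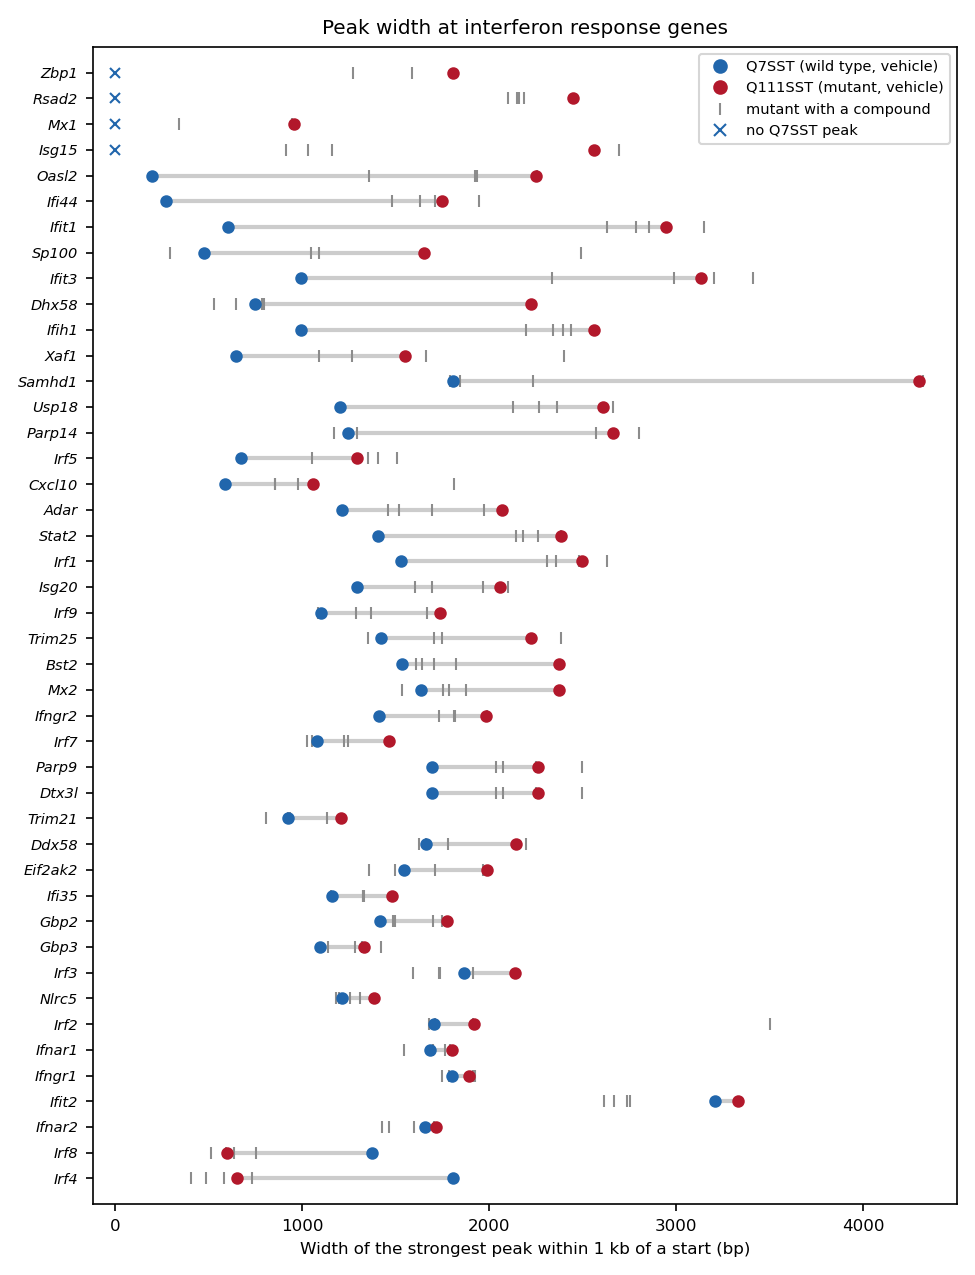
Width in bp of the strongest peak within 1 kb of a start, for each of the 44 members, in Q7SST (blue), Q111SST (red) and the 4 compound lists (grey ticks), ordered by the ratio of Q7SST to Q111SST width with the lowest at the top; crosses at 0 mark members without a Q7SST peak. The blue point lies left of the red point at 38 of the 40 members that have both, and Irf8 and Irf4 at the bottom are the exceptions.

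Over the 40 members marked in all 6 lists, median width was 1332 bp in Q7SST (range 197 to 3208 bp) and 2020.5 bp in Q111SST (601 to 4297 bp). Over all genes marked in all 6 lists it was 1781 bp in Q7SST and 1859 bp in Q111SST. The members' median was thus below that of all genes in Q7SST and above it in Q111SST. The 4 mutant-line lists with a compound gave member medians of 1558.5 bp (Cyproheptadine), 1933.5 bp (Loxapine), 1567 bp (DKI) and 1723 bp (Meclizine), beside 1564, 1777, 1488 and 1736 bp for all genes. It was above that of all genes with Loxapine and DKI, and slightly below it with Cyproheptadine and Meclizine.

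The narrowest peaks relative to Q111SST were those of Oasl2, Ifi44, Ifit1, Sp100 and Ifit3. Oasl2, a relative of the oligoadenylate synthetases (chr5:114896936-114912234), had a peak of 197 bp at percentile 2.76 in Q7SST. In Q111SST its peak (chr5:114897224-114899475) was 2252 bp wide at percentile 84.0, and with the compounds it was 1356 bp (Cyproheptadine), 2254 bp (Loxapine), 1922 bp (DKI) and 1932 bp (Meclizine) wide. The width ratio of Q7SST to Q111SST was 0.0875, and the Q7SST peak lay far below all 5 mutant-line peaks. Ifi44, an interferon-induced gene of antiviral function (chr3:151730922-151749960, minus strand), had a Q7SST peak of 271 bp at percentile 34.0 against 1750 bp at percentile 93.2 in Q111SST. With the compounds its width was 1632 bp (Cyproheptadine), 1944 bp (Loxapine), 1481 bp (DKI) and 1709 bp (Meclizine).

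Ifit1 and Ifit3 belong to a family of proteins that bind viral RNA, and they lie near each other on chr19. The Ifit1 peak was 605 bp wide in Q7SST and 2946 bp in Q111SST (chr19:34640331-34643276). With the compounds it was 2856 bp (Cyproheptadine), 3149 bp (Loxapine), 2786 bp (DKI) and 2629 bp (Meclizine) wide, so that all 5 mutant-line widths were above 4 times the Q7SST width. The Ifit3 peak was 993 bp wide in Q7SST, 3130 bp in Q111SST (chr19:34582984-34586113), 3202 bp with Loxapine, 3412 bp with Meclizine, 2985 bp with DKI and 2338 bp with Cyproheptadine. Ifit2, of the same family and cluster, differed little, with 3208 bp in Q7SST and 3331 bp in Q111SST (ratio 0.963). The Ifit1 peak also lay within 1 kb of a start of Ifit1bl2 in all 6 lists. Sp100, a nuclear body protein, had a ratio of 0.289 (478 against 1653 bp), but its strongest Q7SST peak did not overlap its strongest Q111SST peak, so that ratio compares different places.

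The 2 members that were wider in Q7SST are interferon regulatory factors best known from blood cells. Irf4 had a Q7SST peak of 1804 bp, against 651 bp in Q111SST, 488 bp with Loxapine, 733 bp with Meclizine, 405 bp with DKI and 585 bp with Cyproheptadine. Its ratio of 2.77 was the highest of the 40, and all 5 mutant-line widths were below the Q7SST width. Irf8 had a ratio of 2.28 (1371 against 601 bp). Its strongest peak lay over a start in Q7SST and 947 bp from one in Q111SST, and these peaks did not overlap. In the compound lists the strongest Irf8 peak lay 809 to 990 bp from a start, just inside the window.

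In the medians, the extra width in Q111SST lay mainly downstream of the start. Base pairs under any peak were counted within 3 kb on each side of the principal start, a measure added after the widths were seen. Over the 40 members marked in all 6 lists, the median upstream was 402.5 bp in Q7SST and 454 bp in Q111SST, and the median downstream was 800.5 bp in Q7SST and 1550.5 bp in Q111SST. Over all genes marked in all 6 lists the downstream medians were 1152 bp in Q7SST and 1224 bp in Q111SST, and the upstream median was 582 bp in both. Downstream coverage was lower in Q7SST by 500 bp or more at 20 of the 40 members, against 6.86% of genes, and upstream coverage at 1 of the 40, against 1.85% of genes. Lower downstream coverage than in Q111SST was also found with the compounds, at 9 of the 40 members with Cyproheptadine (11.5% of genes), 4 with Loxapine (5.25%), 9 with DKI (16.6%) and 6 with Meclizine (4.23%), so it was not confined to the wild-type line.

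Single members differed in where the extra width lay. At Ifih1, which encodes a cytoplasmic sensor of long double-stranded RNA, 421 bp upstream and 574 bp downstream were under Q7SST peaks, against 296 and 2266 bp in Q111SST. At Stat2, a signal transducer of the type I response, the values were 697 and 710 bp in Q7SST and 669 and 1716 bp in Q111SST. At Ifit3 they were 590 and 403 bp in Q7SST and 547 and 2583 bp in Q111SST. In each of these 3 genes the upstream extent was larger in Q7SST while the downstream extent was less. At Irf9 and Irf5 most of the difference lay upstream instead. Irf9 had 122 bp upstream and 981 bp downstream in Q7SST, against 617 and 1121 bp in Q111SST, and Irf5 had 0 and 674 bp, against 516 and 776 bp. At Usp18 both sides were shorter in Q7SST, with 530 and 671 bp against 959 and 1647 bp. These 6 members were chosen after their values were seen.

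**Figure D2:**
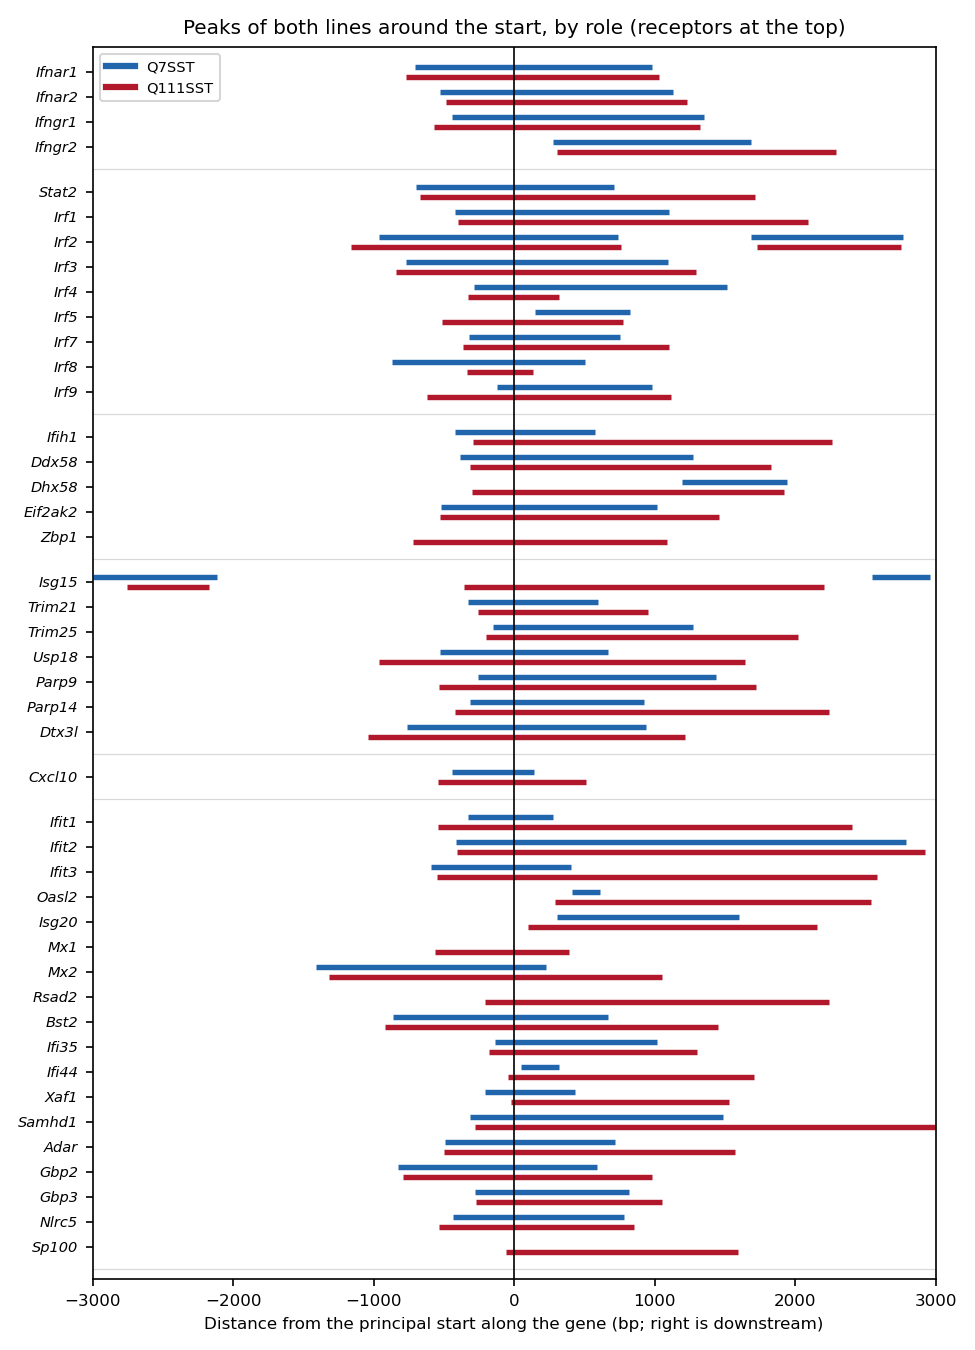
Peaks of Q7SST (blue) and Q111SST (red) within 3 kb of the principal start of each member, in bp along the direction of transcription, with members grouped by role from receptors at the top to other effectors at the bottom. At most members the upstream ends of both lists lie close together, while downstream ends of Q111SST reach further; Isg15, Mx1, Rsad2 and Zbp1 have no blue bar within 1 kb, Sp100 has none because its Q7SST peak lies at another start, and the blue bars of Irf5, Oasl2, Isg20, Dhx58, Ifi44 and Ifngr2 lie downstream of the principal start without covering it.

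The members are given next by role, with counts too small to compare roles. Of the 4 receptor genes, Ifnar1 and Ifnar2 for type I and Ifngr1 and Ifngr2 for type II interferon, 0 were narrower by 1.5-fold in Q7SST, and their median ratio was 0.943. Their widths lay between 1412 and 1800 bp in Q7SST and between 1716 and 1983 bp in Q111SST. The lowest ratio among them was 0.712, at Ifngr2. No test of a difference between roles was made.

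Of the 9 transcription factors, 4 were narrower by 1.5-fold (median ratio 0.738). These were Stat2 (1407 bp in Q7SST, 2385 bp in Q111SST), Irf1 (1529 and 2496 bp), Irf9, the DNA-binding partner of Stat2 (1103 and 1738 bp), and Irf5 (674 and 1292 bp). Irf3 and Irf7, which drive transcription of the interferon genes, had ratios of 0.874 and 0.738, and Irf2 had 0.887. The Irf3 peak was shared with a start of Bcl2l12 in all 6 lists.

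Of the 4 sensors marked in both lines, 2 were narrower by 1.5-fold (median ratio 0.582). They were Ifih1 (995 bp in Q7SST, 2562 bp in Q111SST) and Dhx58, its regulatory relative (748 and 2221 bp). At Dhx58 the strongest peak was 529 to 796 bp wide in the 4 compound lists as well. Each of these 4 lists also had a weaker peak near the principal start, in the stretch covered by the Q111SST peak. Q7SST had no peak near that start, so widths of the strongest peak understate what the compound lists and Q111SST had in common there. Ddx58, a sensor of short double-stranded RNA, and Eif2ak2, the RNA-dependent kinase that halts translation, had ratios of 0.775 and 0.776.

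Of 6 members of the ubiquitin-like and ADP-ribose group marked in both lines, 3 were narrower by 1.5-fold (median ratio 0.694). Usp18, the protease that removes Isg15 from its targets, had 1201 bp in Q7SST and 2606 bp in Q111SST. Parp14, an ADP-ribosyltransferase, had 1245 and 2662 bp, and the ubiquitin ligase Trim25 had 1419 and 2225 bp. Parp9 and Dtx3l, whose products form a complex, share a single peak in all 6 lists (1696 and 2260 bp) and are not independent values. The ratio at Trim21 was 0.767.

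Of the 16 other effectors marked in both lines, 10 were narrower by 1.5-fold, with a median ratio of 0.608. Besides Oasl2, Ifi44, Ifit1, Ifit3 and Sp100 these were Xaf1, Samhd1, Adar, Isg20 and Bst2. Samhd1, which degrades the building blocks of DNA, had the widest Q111SST peak of the members marked in all lists, at 4297 bp, and measured 1805 bp in Q7SST, 4319 bp with Loxapine, 2232 bp with Meclizine, 1792 bp with DKI and 1842 bp with Cyproheptadine. Q111SST and Loxapine were thus wide at Samhd1 and the other 4 lists narrow. Gbp2, Gbp3, Nlrc5, Ifi35, Mx2 and Ifit2 were not narrower by 1.5-fold, with ratios from 0.689 to 0.963. The chemokine gene Cxcl10 had 587 bp in Q7SST and 1058 bp in Q111SST, a ratio of 0.555.

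Set against each compound list in place of Q111SST, a comparison added after the data were seen, the members were again narrower in Q7SST than genes in general. Peaks at least 1.5-fold narrower in Q7SST were found at 12 of 40 members against Cyproheptadine (3.03% of genes), 17 of 40 against Loxapine (5.40%), 11 of 40 against DKI (2.94%) and 14 of 40 against Meclizine (6.19%). The median ratios were 0.943, 0.733, 0.955 and 0.810 over the members, and 1.09, 0.985, 1.15 and 1.03 over all genes. These comparisons share the Q7SST list.

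The median percentile of the 40 members marked in all lists was 84.6 in Q7SST and 85.9 in Q111SST, beside 82.7 and 84.3 for all genes. The percentile was lower in Q7SST by 10 points or more at 12 of 40 members (13.0% of genes) and higher by 10 points or more at 5 of 40 (8.85% of genes). Of the 20 members with narrower Q7SST peaks, 9 had a percentile lower by 10 points or more, 5 had one higher by 10 points or more and 6 were within 10 points. The same split was not made over all genes, so it cannot be called particular to the members.

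The strongest members in Q111SST were Gbp2, a guanylate-binding protein of the response to gamma interferon, at percentile 99.7, Ifi35 at 98.7, the antibody-binding ubiquitin ligase Trim21 at 98.1, Nlrc5, an activator of major histocompatibility class I genes, at 97.1, and Ddx58 at 97.0. The Gbp2 percentile was 95.2 in Q7SST, 98.4 with Loxapine, 99.6 with Meclizine, 99.0 with DKI and 95.6 with Cyproheptadine, so it stood high in all 6 lists. Ifi35 was at 74.1 in Q7SST and between 92.8 and 98.7 in the 5 mutant-line lists. The weakest of the members marked in all lists were Irf5 at 44.1, Ifih1 at 49.9, Sp100 at 50.7, Bst2 at 59.0 and Irf4 at 64.6.

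The largest falls in percentile from Q111SST to Q7SST were at Oasl2 (by 81.3 points, from 84.0 to 2.76), Ifi44 (from 93.2 to 34.0), Trim25 (from 72.8 to 45.4), Irf5 (from 44.1 to 18.6) and Ifi35 (from 98.7 to 74.1). The largest rises were at Ifih1 (from 49.9 to 78.7), Bst2, which tethers budding virus to the cell (from 59.0 to 86.2), Samhd1 (from 73.9 to 92.0), Dhx58 (from 71.1 to 82.7) and Parp14 (from 76.2 to 86.2). All 5 members with a percentile higher by 10 points or more in Q7SST were narrower by 1.5-fold in that list. Their Q7SST peaks were thus narrower than in Q111SST and yet ranked higher.

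**Figure D3:**
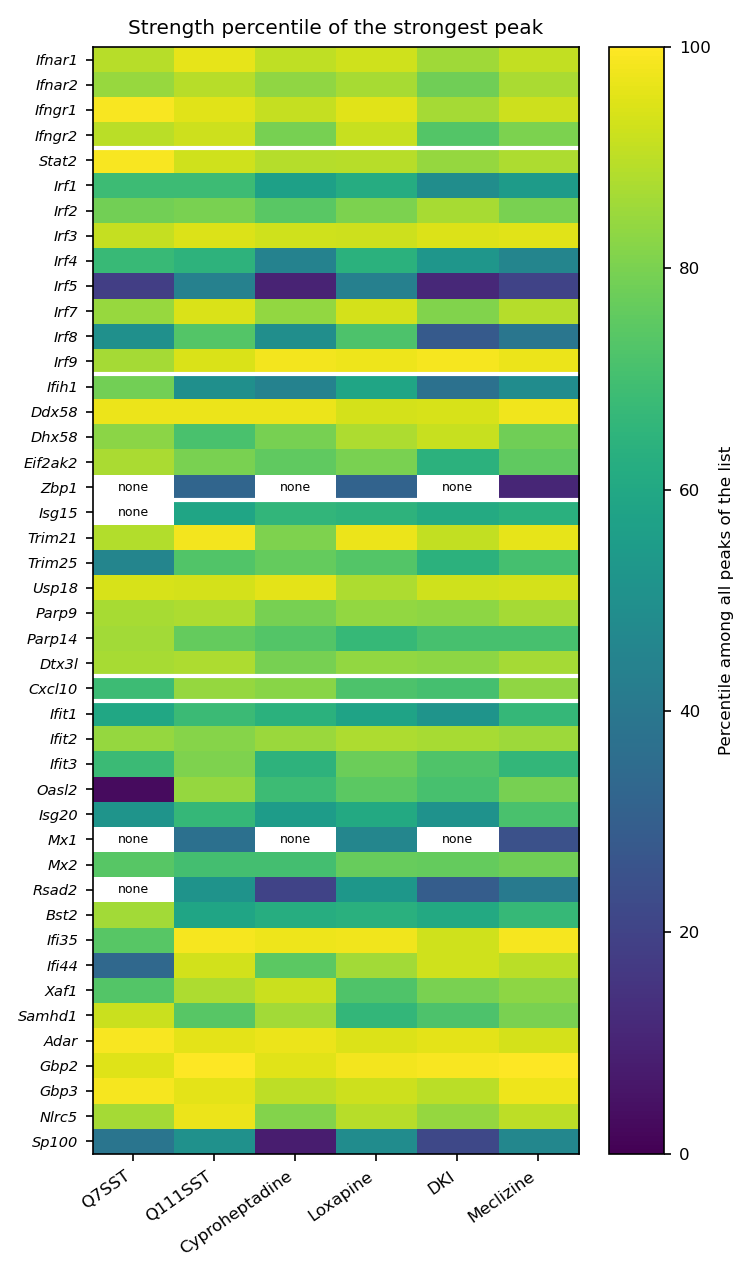
Strength percentile (colour, 0 to 100) of the strongest peak of each member in each of the 6 lists, with roles separated by white lines in the order receptors, transcription factors, sensors, ubiquitin-like and ADP-ribose group, chemokine and other effectors; "none" marks a list without a peak within 1 kb. Oasl2 at 2.76 in Q7SST against 84.0 in Q111SST is the largest contrast between the lines.

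The compounds, each given at 10 uM for 24 h, were compared with the vehicle list Q111SST of the same duration. The 4 comparisons share the Q111SST list, and their values are given side by side only. Marks present in Q111SST were missing at 2 of 44 members with Cyproheptadine (Mx1 and Zbp1; 5.70% of genes), 0 with Loxapine (2.12%), 2 with DKI (Mx1 and Zbp1; 4.94%) and 0 with Meclizine (1.37%).

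With Cyproheptadine 7 of 42 members were narrower than in Q111SST by 1.5-fold or more (16.0% of genes) and 0 were wider (0.978%), and the median ratio was 0.845, beside 0.887 for all genes. With DKI 8 of 42 were narrower (18.7%) and 0 wider (1.32%), with a median ratio of 0.816, beside 0.833. With Loxapine 2 of 44 were narrower (8.51%) and 3 wider (2.52%), with a median ratio of 1.00, beside 0.987. With Meclizine 4 of 44 were narrower (4.63%) and 1 wider (3.78%), with a median ratio of 0.905, beside 0.942. The share of members narrower at any size was 97.6% with Cyproheptadine (86.7% of genes), 50% with Loxapine (55.6%), 100% with DKI (91.9%) and 84.1% with Meclizine (74.7%). With each compound most genes were thus narrower than in Q111SST, and with each but Loxapine most members were too.

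**Figure D4:**
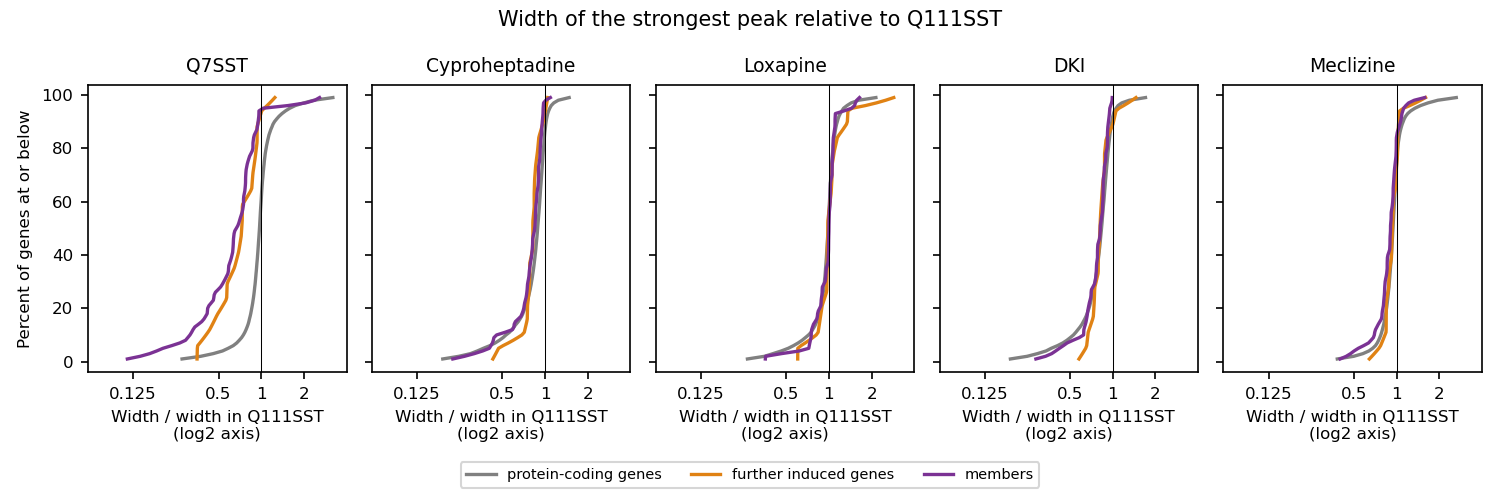
Cumulative percent of genes by width of the strongest peak relative to Q111SST (log2 axis), for each of the other 5 lists, over the members (purple), the further interferon-induced genes (orange) and all protein-coding genes (grey) marked in both lists. In Q7SST the purple and orange curves lie left of the grey one, with medians of 0.668, 0.729 and 0.973, while in the compound lists the curves run close together.

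The percentile of 14 of 42 members was lower by 10 points or more with Cyproheptadine (25.9% of genes) and that of 1 was higher (3.48%). With Loxapine 2 of 44 were lower (9.41%) and 1 higher (7.10%). With DKI 17 of 42 were lower (38.8%) and 1 higher (3.55%). With Meclizine 9 of 44 were lower (10.0%) and 0 higher (4.18%). These counts depended on the peaks ranked. With lists of equal size, 6 of 42 members were lower and 6 higher with DKI, and 11 of 43 were lower with Loxapine. A score threshold at the pooled median of all lists was added for these shifts after seeing the data. With it, 5 of 37 members were lower and 7 higher with Meclizine, so the direction of the larger count turned. With Loxapine 10 of 38 were lower and 5 higher. Shares of all genes under these settings were not set beside these counts. Whether the members moved apart from genes in general there is not known.

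Irf5, Irf8 and Dhx58 were each among the members with the largest percentile changes for more than 1 compound. With Cyproheptadine, Sp100 went from percentile 50.7 to 7.93 and Irf5 from 44.1 to 10.1, while Samhd1 went from 73.9 to 86.1 and Dhx58 from 71.1 to 79.5. With DKI, Irf8 went from 73.2 to 28.1 and Irf5 from 44.1 to 11.4, while Dhx58 went from 71.1 to 91.6 and Irf2 from 79.7 to 86.9. With Meclizine, Irf8 went from 73.2 to 39.1 and Irf5 from 44.1 to 20.2, while Bst2 went from 59.0 to 67.1 and Mx2 from 70.2 to 78.3. With Loxapine, Xaf1 went from 87.6 to 72.6 and Cxcl10 from 84.3 to 72.2, while Dhx58 went from 71.1 to 87.5 and Ifih1 from 49.9 to 58.8. The Dhx58 peak that gave these percentiles was 2221 bp wide in Q111SST. In every other list it was at most 796 bp wide and lay downstream of the principal start.

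Other genes of the pathway were taken from separate lists. Of 26 further interferon-induced genes in the annotation, 20 were marked in Q111SST and 18 in Q7SST, with Oas3 and Oasl1 lacking a Q7SST peak. Of the 18 marked in both, 7 were narrower in Q7SST by 1.5-fold or more and 0 wider, with a median ratio of 0.729, where 6.89% of all genes were narrower and 5.82% wider. Their percentile was lower in Q7SST by 10 points or more at 8 of 18 (13.0% of genes) and higher at 0 (8.85% of genes). Among the 7 narrower genes, Gbp7 had 938 bp in Q7SST and 1915 bp in Q111SST, Rnf213 had 997 and 1732 bp, and Ifi27 had 855 and 1985 bp. Ifitm3 was wider in Q7SST by less than 1.5-fold (2272 and 1751 bp), and Psmb10 differed little (1906 and 1889 bp). Some of these genes share a peak: Irgm2 and Igtp, both among the 7, have the same Q111SST peak of 1643 bp, and Psmb9 and Tap1 share one in both lines. Of 14 signalling genes such as Jak1, Tyk2, Mavs and Tbk1, 14 were marked in every list, 2 were narrower in Q7SST and 1 was wider, with a median ratio of 0.992. Of 7 interferon genes themselves, Ifnk was marked in 3 lists (Q111SST, Loxapine and DKI) and the other 6, Ifnb1 and Ifng among them, in none.

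Promoter sequence was compared between members with and without a narrower Q7SST peak. The 17 members narrower by 1.5-fold that were in the promoter table had 24 promoters, with a median CpG observed-to-expected ratio of 0.393 and an ISRE core in 6. The 17 members marked in both lines and not narrower had 20 promoters, with a median ratio of 0.575 and an ISRE core in 6. The median over all promoters in the table was 0.384. The GAS core was found in 5 of the 24 promoters of the narrower members (20.8%) and in 7 of the 20 of the others (35%), and the ISRE shares were 25% and 30%. Both promoters of members without a Q7SST peak, those of Isg15 and Rsad2, held the ISRE core and neither held the GAS core.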

How the data were processed

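H3K4me3 ChIP-Seq was performed on 2 STHdh lines in 6 conditions, with 1 deposited peak list for each. Chromatin was digested with micrococcal nuclease and libraries were sequenced as single-end reads. The submitters' processing notes name Trimmomatic 0.36, Bowtie2, SAMtools 1.3, MACS2 and mm10, without parameters. The treatment of reads that map to several places, and whether replicates were pooled, are not given in the sources used here. Each deposited line holds a peak's position and a whole-number score, the authors' own, whose scale is not stated. Positions were checked against GRCm38: of its 21 chromosomes, 0 were exceeded by any peak.

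Peaks were compared with GENCODE vM21 starts in Python 3.11.15 with pandas 2.3.3. The highest-scoring peak within 1 kb gave percentile (share of the list's peaks with a lower score, ties counted at mid-rank) and width. Shifts were counted at 10 percentile points and 1.5-fold width. The steps were tested on simulated data. Members and lists were chosen with earlier results of these data known. Members named were those marked in some lists, the 5 strongest and weakest in Q111SST, the 5 largest changes per direction between lines in percentile and width, and 2 per direction with each compound. Others are named by role. Alternatives were the score threshold, list size, window, choice and merging of peaks, and genes that share a peak. Promoters were taken from RefSeq.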

Additional observations from a re-analysis of the deposited data

How the results depend on the processing

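With 1 list per condition, these values carry no replicate error, and depth is unknown. No paired analysis was possible because there was only 1 list for any condition. The members' narrower Q7SST peaks were found under all 9 alternatives run for width: 41.2% to 51.4% of members were narrower by 1.5-fold or more, beside 4.82% to 8.44% of genes. Of the alternative values, 265 stayed near the value reported (counts within 1.5 times it, medians within its 95% interval over members) and 33 moved, most of them counts in the compound lists. That interval treats members as independent, though Parp9 and Dtx3l share a peak, and it measures no replicate error. Percentile shifts with the compounds were the least stable: with Meclizine the balance of lower and higher members turned at the score threshold, and with DKI it became even with lists of equal size. The cause was not tested.

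The counts that follow are over 34 to 44 members, and shares of all genes under the same settings were not set beside them. With a score threshold at the median of all lists pooled (47), which carries any difference in scale between lists and could remove a Q111SST mark, 1 member was gained in Q7SST, 2 with Loxapine and 2 with Meclizine, and 1 was lost with Meclizine. Under the same setting, added for shifts after seeing the data, the percentile was higher by 10 points or more at 8 members in Q7SST, 2 with Cyproheptadine, 4 with DKI, 5 with Loxapine and 7 with Meclizine, and lower at 10 with Loxapine and 5 with Meclizine, while 1 was narrower with Loxapine. With lists of equal size, 1 member was lost with Loxapine and 1 with Meclizine, the percentile was higher at 4 with Cyproheptadine, 6 with DKI and 3 with Meclizine, and it was lower at 6 with DKI and 11 with Loxapine. With a peak required over the start, 6 members were lost with Cyproheptadine, 4 with DKI, 2 with Loxapine and 1 with Meclizine, 4 were narrower with Cyproheptadine and 1 with Loxapine, and the percentile was higher at 0 with DKI and 0 with Loxapine. Within 5 kb, the percentile was lower at 1 with Loxapine. These settings were also added after seeing the data: with starts of protein-coding transcripts, the percentile was higher at 0 with DKI and 0 with Loxapine; with peaks within 1 kb merged, 1 member was narrower with Loxapine and 0 wider with Meclizine; and with base pairs covered within 3 kb, 0 were wider with Meclizine.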
